A study of Homo sapiens with 14 samples.

Results

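Leucine tRNAs with the anticodons AAG, CAG, TAA and TAG were followed at 19 genomic loci where TRMT2A, the enzyme that methylates uridine 54 of cytosolic tRNAs, was crosslinked to RNA. The loci were those of the study's table of crosslink clusters whose names begin with tRNA-Leu, apart from the anticodon CAA. Of them, 7 were AAG, 4 CAG, 5 TAA and 3 TAG. They came from 45 of the 563 clusters in that table and were 19 of its 248 tRNA loci and 19 of its 316 loci of all kinds. The study kept in it only sites with 5 or more normalised counts in 3 or more of its 5 experiments. Clusters less than 40 nt apart were taken as 1 locus, and the cDNA counts of a locus were summed on its strand from 100 nt 5′ to 25 nt 3′ of the cluster.

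The counts came from 14 libraries of 2 human cell lines, the embryonic kidney line HEK293 and the near-haploid leukaemia line HAP1. In FICC-Seq, HEK293 or HAP1 cells took up 100 µM 5-fluorouracil for 24 h, which is built into RNA and keeps a uridine methyltransferase covalently bound to the base it has methylated, and endogenous TRMT2A was then precipitated with an anti-TRMT2A antibody (n = 3 libraries per cell line). In iCLIP, TRMT2A of both lines was crosslinked to any RNA it touched by UV light and precipitated with the same antibody (n = 3 per cell line). In miCLIP, HEK293 cells were transfected with a FLAG-tagged TRMT2A in which the glutamate acting as catalytic base was replaced by alanine, harvested 24 h later and precipitated with anti-FLAG (n = 2). The condition label reads Untreated for all libraries, FICC-Seq included, and the 5-fluorouracil treatment is given by the protocols. The sources used here name no deletion in any of these groups, and the study calls the replicates biological without saying whether they came from separate cultures, so the p-values cover the spread between libraries. The files fall into 3 sets by the prefix of their names, HEK293 with the anti-TRMT2A antibody, HAP1, and miCLIP, and in-line barcodes recur between these sets. What the prefixes stand for is not given in the sources used here, so anything that differed between the sets cannot be told apart from cell line or miCLIP. No marker gene of either cell line was examined, since the files hold crosslink positions. Libraries held from 7002 counts (iCLIP HEK293 replicate 3) to 104605 counts (miCLIP replicate 2), with FICC-Seq at 15982 to 38957 and iCLIP at 7002 to 17432.

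Leucine tRNAs, like serine tRNAs, carry a long variable arm between the anticodon stem and the T arm. The T arm ends the tRNA body with a stem and a loop of constant layout, in which uridine 54 becomes 5-methyluridine through TRMT2A and adenosine 58 is commonly methylated on N1 by another enzyme. A cDNA in these methods ends where reverse transcriptase stops, and it is counted at the base that the enzyme would have copied next. A stop in front of base 54 is thus counted at 54 and a stop in front of methylated A58 at 58, while a cDNA that still includes base 54 and ends there is counted at 53. Positions are given here in standard tRNA numbering, with 54 at the first base of the T loop.

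The sequences of the locus with the most FICC-Seq counts for each anticodon, and of tRNA-Leu-AAG-3-1, which behaved differently in the cell lines, show the part of the tRNA in which the counts lay. They are the genomic hg19 sequence of the whole gene, 5′ to 3′, with the T stem and T loop in capitals.
tRNA-Leu-AAG-2-4 (chr16:22308461-22308542, plus strand): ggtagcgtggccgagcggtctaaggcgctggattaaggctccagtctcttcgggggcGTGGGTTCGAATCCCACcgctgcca
tRNA-Leu-AAG-3-1 (chr6:28956779-28956860, plus strand): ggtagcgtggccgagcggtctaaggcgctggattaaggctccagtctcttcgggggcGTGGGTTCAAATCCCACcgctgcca
tRNA-Leu-CAG-2-2 (chr16:57334392-57334474, minus strand): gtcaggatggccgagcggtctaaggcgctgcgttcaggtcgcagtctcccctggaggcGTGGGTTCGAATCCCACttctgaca
tRNA-Leu-TAA-1-1 (chr6:144537684-144537766, plus strand): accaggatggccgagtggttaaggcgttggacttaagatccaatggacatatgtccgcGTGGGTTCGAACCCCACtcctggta
tRNA-Leu-TAG-1-1 (chr17:8023632-8023713, minus strand): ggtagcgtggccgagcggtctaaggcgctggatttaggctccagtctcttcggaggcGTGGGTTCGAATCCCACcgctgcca
All 19 genes had T at 54 and A at 58, were 82 to 84 nt long and held 6 different T loops, of which TTCGAAT stood in 12 loci and TTCGAAC in 3. tRNA-Leu-AAG-3-1 differed from the 4 identical genes tRNA-Leu-AAG-2-1 to AAG-2-4 by the single substitution G57A, counted in tRNA numbering. tRNA-Leu-CAG-1-6 and CAG-1-7 were identical to each other, as were CAG-2-1 and CAG-2-2, and these pairs differed by C67T. In the annotation, 16 of the 19 loci lay in no gene on the same strand, while tRNA-Leu-TAA-3-1 and AAG-4-1 lay within long noncoding RNA genes and CAG-1-7 within 2 gene models of the TEC class, in all 3 cases outside their exons.

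Because several genes were identical, what followed base 54 decided to which locus a read could be assigned. The end of the gene from base 54 to base 73 is shown with the 15 genomic bases after it, the 3′ trailer of the precursor, in capitals.
tRNA-Leu-AAG-2-4: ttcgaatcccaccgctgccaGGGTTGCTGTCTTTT
tRNA-Leu-TAG-1-1: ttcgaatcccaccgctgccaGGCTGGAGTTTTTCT
tRNA-Leu-TAG-3-1: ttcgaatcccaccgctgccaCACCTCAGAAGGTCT
tRNA-Leu-AAG-3-1: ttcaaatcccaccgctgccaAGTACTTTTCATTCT
tRNA-Leu-CAG-2-2: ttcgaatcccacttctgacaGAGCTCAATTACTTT
tRNA-Leu-CAG-2-1: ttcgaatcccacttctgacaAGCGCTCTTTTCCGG
tRNA-Leu-TAA-1-1: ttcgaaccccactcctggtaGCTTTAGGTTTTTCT
tRNA-Leu-TAA-chr11-12: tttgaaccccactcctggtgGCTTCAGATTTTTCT
tRNA-Leu-TAA-4-1: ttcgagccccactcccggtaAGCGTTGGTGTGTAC
The 20 bases from 54 to 73 were the same in 7 loci, 5 of AAG and 2 of TAG, among them the first 3 shown. A cDNA from base 54 to base 73 matched a single place of the genome exactly for 5 loci, all TAA, while the other 14 needed between 1 and 11 trailer bases for a single exact match. For a cDNA counted at position 58, all 19 loci needed 1 to 11 trailer bases. A cDNA from base 54 to the mature end with its added CCA (23 nt) had its own locus as the only best match for 0 of the 19 loci, and at 14 of them it had over 2 mismatches. Only uniquely mapped reads entered the deposited counts, and how many counted cDNAs carried trailer bases was not tested. The counts are therefore those of the locus as mapped.

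The 19 loci held similar parts of the FICC-Seq and iCLIP libraries and a much smaller part of the miCLIP libraries. In FICC-Seq they took 12.1%, 10.9% and 13.4% of the counts in HEK293 and 13.0%, 12.3% and 13.6% in HAP1. In iCLIP they took 9.84%, 11.4% and 9.97% in HEK293 and 11.7%, 12% and 13.2% in HAP1. Ranges of FICC-Seq and iCLIP overlapped, and the difference of 1.19 percentage points was not called (exact permutation test within cell lines, two-sided p = 0.065, adjusted p = 0.114). Its sign depended on positions with a single count, which made up 68.8 to 78.2% of counted positions in iCLIP and 53.1 to 60.8% in FICC-Seq: without them it was -2.77 points (exact permutation p = 0.01, adjusted p = 0.0389), and without tRNA-Leu-CAG-2-2 it was 1.99 points (exact permutation p = 0.005, adjusted p = 0.0194). HEK293 against HAP1 gave -1.37 points (exact permutation p = 0.035, adjusted p = 0.0721), which was not called either. In miCLIP the loci took 2.17% and 2.34%, below every other library (exact permutation p = 0.1 against FICC-Seq in HEK293, the smallest that 3 against 2 libraries can give). By the study's rule a site could be listed without miCLIP counts, but not without counts in FICC-Seq or iCLIP. The low miCLIP share is thus not independent of how the loci were chosen. Of the counts on tRNA loci alone, the 19 loci took 14.5% ± 1.74 (SD, n = 3) in FICC-Seq HEK293, 16.6% ± 0.714 in FICC-Seq HAP1, 19.6% ± 1.97 in iCLIP HEK293, 22.0% ± 2.14 in iCLIP HAP1 and 3.97% ± 0.105 (n = 2) in miCLIP. That share was lower in FICC-Seq than in iCLIP, with a difference of -5.24 points (exact permutation p = 0.005, the smallest possible, adjusted p = 0.0219).

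Among the anticodons, tRNA-Leu-CAG held the largest part of the counts with the anti-TRMT2A antibody. Of the counts on the 19 loci, tRNA-Leu-CAG took 38.7 to 39.8% in FICC-Seq HEK293, 43.6 to 45.3% in FICC-Seq HAP1, 49.6 to 55% in iCLIP HEK293 and 51.8 to 53% in iCLIP HAP1, but 21.4% and 31.3% in miCLIP. The loci of tRNA-Leu-TAA took 25.1 to 26.5% in FICC-Seq HEK293, 21.1 to 24.3% in FICC-Seq HAP1, 12.5 to 18.2% in iCLIP HEK293 and 11.7 to 12.6% in iCLIP HAP1. The 4 anticodons lay between 22.2% and 26.4% as means of the 2 miCLIP libraries. No test was made on these shares.

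The level of a locus is given on the counts-per-million scale of the library total (CPM), without scaling by length as the genes differed by at most 2 nt. Highest was tRNA-Leu-CAG-2-2, with 25674, 22275 and 30884 CPM in FICC-Seq HEK293, 28593, 30298 and 29289 in FICC-Seq HAP1, 33330, 29548 and 31562 in iCLIP HEK293, 40396, 39822 and 40692 in iCLIP HAP1, and 1384 and 1874 in miCLIP. It was the highest of the 19 in each FICC-Seq and iCLIP library, whereas its identical copy tRNA-Leu-CAG-2-1 (chr16:57333863-57333945), which lies close by on the other strand, reached 5882 to 8368 CPM in FICC-Seq and 6536 to 10328 in iCLIP. tRNA-Leu-TAA-1-1 had 13701, 12514 and 13929 CPM in FICC-Seq HEK293, 15507, 13636 and 12501 in FICC-Seq HAP1, 5966, 5133 and 5427 in iCLIP HEK293, 5356, 5203 and 5849 in iCLIP HAP1, and 1691 and 1778 in miCLIP. All of its FICC-Seq values lay above all of its iCLIP values.

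tRNA-Leu-TAG-1-1 had 13912, 11012 and 15020 CPM in FICC-Seq HEK293, 13792, 13413 and 12655 in FICC-Seq HAP1, 7859, 9515 and 6855 in iCLIP HEK293, 9168, 9132 and 14435 in iCLIP HAP1, and 1204 and 1185 in miCLIP. Its FICC-Seq range overlapped that of tRNA-Leu-TAA-1-1 in both cell lines and that of TAA-3-1 in HEK293, while in HAP1 it lay above TAA-3-1. The AAG locus with the most FICC-Seq counts over both cell lines, tRNA-Leu-AAG-2-4, had 6197, 5193 and 6015 CPM in FICC-Seq HEK293, 4810, 4749 and 6546 in FICC-Seq HAP1, 3270, 4132 and 2714 in iCLIP HEK293, 3359, 3717 and 4231 in iCLIP HAP1, and 2127 and 2208 in miCLIP. In HAP1 alone tRNA-Leu-AAG-3-1 was higher, with means of 6917 against 5368 CPM in FICC-Seq and 5030 against 3769 in iCLIP. The identical copies of AAG-2-4 followed in the order AAG-2-3, AAG-2-1 and AAG-2-2 by summed FICC-Seq counts (692, 443 and 215 against 970). Lowest were tRNA-Leu-AAG-1-3 and AAG-4-1, with 36 and 29 counts in the 6 FICC-Seq libraries and 19 and 10 in the 6 iCLIP libraries.

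**Figure D1:**
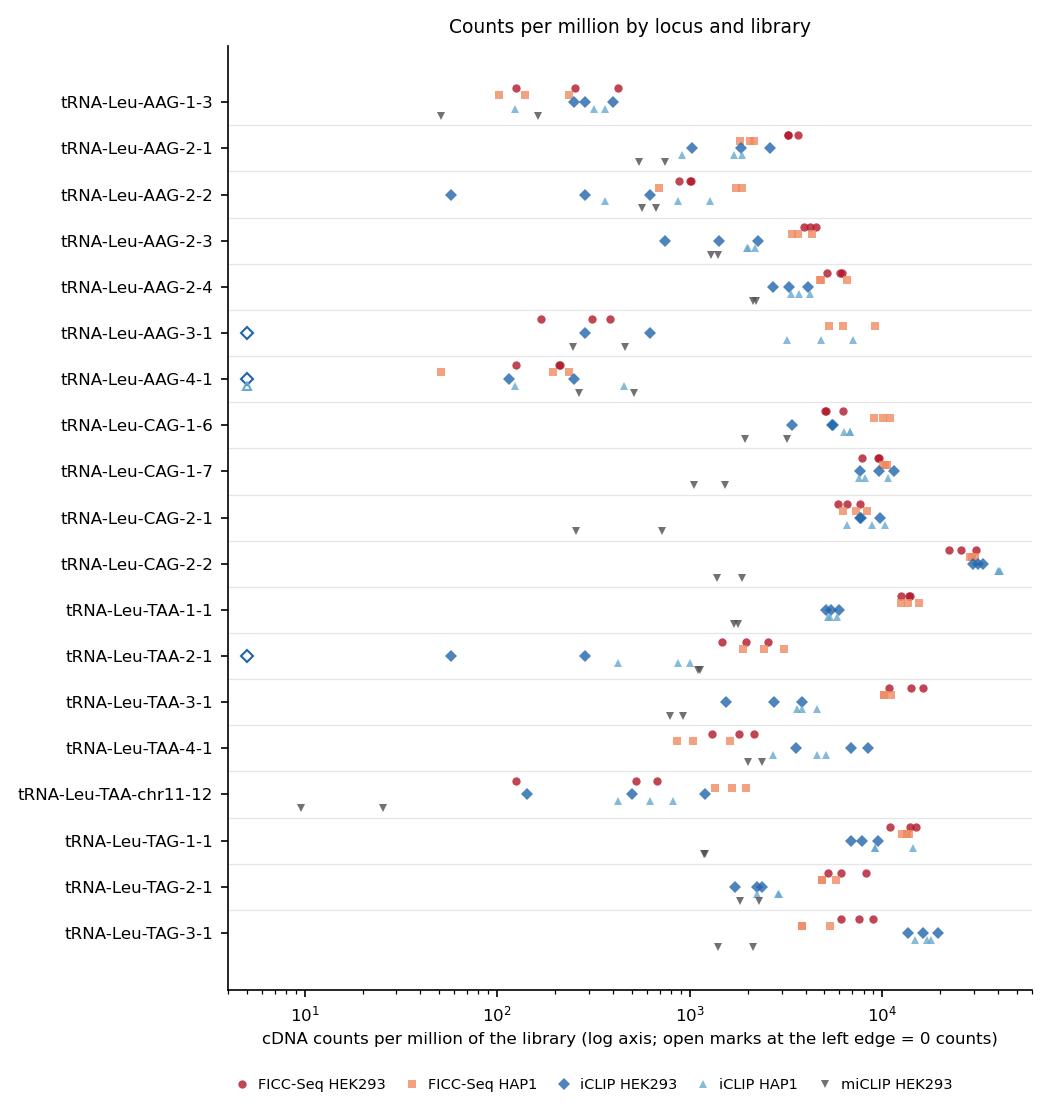
CPM (x axis, log scale) of each of the 19 leucine tRNA loci in each of the 14 libraries, by experiment, with 1 mark per library; open marks at the left edge stand for 0 counts. tRNA-Leu-CAG-2-2 lies highest in FICC-Seq and iCLIP, and tRNA-Leu-AAG-3-1 shows HEK293 libraries of both methods at 0 to 626 CPM and HAP1 libraries at 3186 to 9190.

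Within the loci, FICC-Seq counts lay at positions 53, 54 and 58 of the T arm, and iCLIP counts lay at 54, 58 and 61 and on both sides. Position 53, the base before the methylated uridine, held 36.2%, 35.9% and 41.5% of the counts in FICC-Seq HEK293 and 36.6%, 35.9% and 36.7% in FICC-Seq HAP1, against 3.67%, 5.51% and 3.58% in iCLIP HEK293 and 4.58%, 4.77% and 3.01% in iCLIP HAP1. In miCLIP it held 28.6% and 40.8%. Every FICC-Seq and miCLIP library was above every iCLIP library. Position 54 differed much less, with 18.4 to 23.8% in FICC-Seq, 10.9 to 24.4% in iCLIP and 14.7% and 22.8% in miCLIP.

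Positions 53 and 54 together held 60.7% ± 3.05 (SD, n = 3) of the counts in FICC-Seq HEK293, 56.6% ± 2.60 in FICC-Seq HAP1, 23.3% ± 7.63 in iCLIP HEK293, 22.4% ± 6.24 in iCLIP HAP1 and 53.5% ± 2.89 (n = 2) in miCLIP. FICC-Seq was 35.8 points above iCLIP (exact permutation p = 0.005, adjusted p = 0.0219). HEK293 and HAP1 differed by 2.50 points over both methods (exact permutation p = 0.395, adjusted p = 0.446). FICC-Seq was 7.2 points above miCLIP in HEK293 (exact permutation p = 0.1, adjusted p = 0.135, which that design could not bring lower than p = 0.1).

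Position 58, the base commonly methylated to 1-methyladenosine, held 28.5%, 29.4% and 25.6% in FICC-Seq HEK293 and 32.6%, 29.5% and 30.5% in FICC-Seq HAP1. In iCLIP it held 28.7%, 22.4% and 10.6% in HEK293 and 27.6%, 24.2% and 26.6% in HAP1, and in miCLIP 8.17% and 10.3%. The miCLIP values were the lowest of all and the iCLIP HEK293 values spread most. FICC-Seq was 6.0 points above iCLIP (exact permutation p = 0.03, adjusted p = 0.0684), a difference that was not called. It was called without iCLIP HEK293 replicate 1, with 8.04 points (adjusted p = 0.0175), and so was the lower share in HEK293 than in HAP1, which moved from -4.30 points (exact permutation p = 0.115, adjusted p = 0.149) to -6.35 (adjusted p = 0.0175). Neither was called with any other library left out. The differences then shrank to as little as 3.51 and -1.81 points, with adjusted p by exact permutation up to 0.175 and 0.356. FICC-Seq was 18.6 points above miCLIP (exact permutation p = 0.1, the smallest possible, adjusted p = 0.135).

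Position 61 in the 3′ strand of the T stem separated iCLIP from the rest. It held 8.07 to 17.6% of the counts in the 6 iCLIP libraries, 0.0378 to 0.139% in the 6 FICC-Seq libraries, and 0% and 0.0816% in miCLIP. In iCLIP, 933 of 6804 counts lay there, spread unevenly over 17 of the 19 loci, while FICC-Seq had 17 of 21994 and miCLIP 2 of 3296. tRNA-Leu-CAG-2-2 held 308 of the 933, which were 14.1% of its own iCLIP counts. At tRNA-Leu-TAA-4-1, only 2 of 290 iCLIP counts (0.690%) lay at 61. Position 48, at the 3′ end of the variable arm, held 2.22 to 7.74% in iCLIP, 4.98% and 6.86% in miCLIP, and 0 to 0.384% in FICC-Seq. No test was fixed for these positions.

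All counts 5′ of position 49, thus in the rest of the tRNA and its leader, made up 1.25%, 2.07% and 1.26% in FICC-Seq HEK293 and 1.06%, 3.64% and 1.38% in FICC-Seq HAP1. In iCLIP they made up 5.48%, 12.2% and 31.1% in HEK293 and 14.6%, 12% and 11.6% in HAP1, and in miCLIP 24.4% and 25.1%. iCLIP HEK293 replicate 3 stood apart, with 17.3% of its counts before the start of the gene against 1.68 to 4.32% in the other iCLIP libraries. The difference between FICC-Seq and iCLIP was -12.7 points (exact permutation p = 0.005, adjusted p = 0.0219), and the difference was -9.01 points without that library. With position 54 placed by the FICC-Seq peak of the other cell line in place of the sequence, it was -6.75 points and not called (adjusted p = 0.105). Between FICC-Seq and miCLIP in HEK293 it was -23.2 points (exact permutation p = 0.1, adjusted p = 0.135). The 95% exact binomial intervals of these shares in single libraries reached at most 3.50 points to either side, and cover counting error only.

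**Figure D2:**
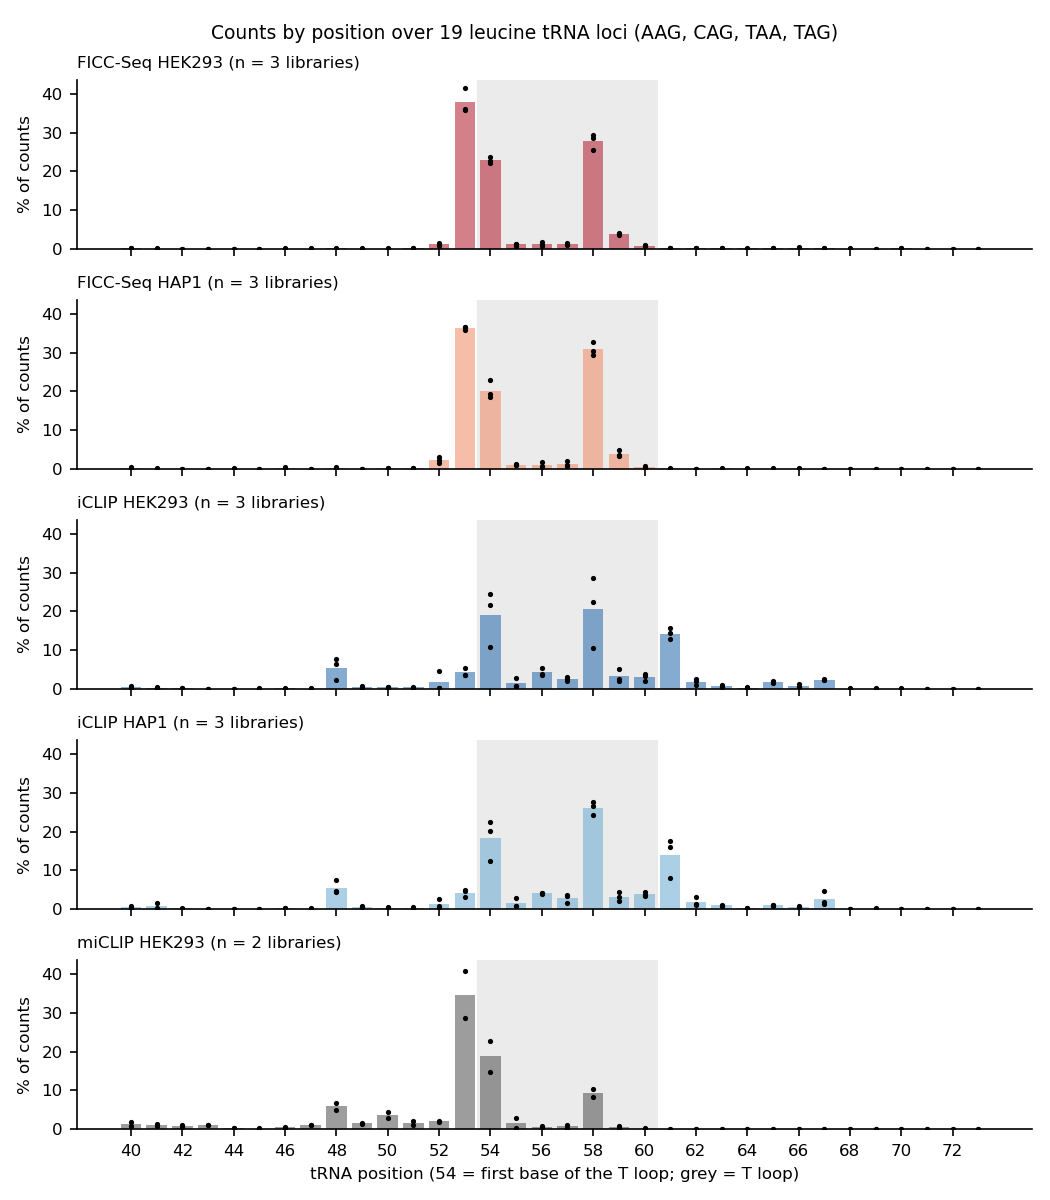
Share of the counts on the 19 loci (percent, y axis) at tRNA positions 40 to 73 (x axis; the T loop is shaded) in the 5 experiments; bars are means and points are libraries. FICC-Seq and miCLIP have their highest bar at 53, with 34.7 to 37.9% as means, while iCLIP has 4.12 to 4.25% there and 13.9 to 14.2% at 61.

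Each anticodon taken alone was called at positions 53 and 54, and CAG alone was called at 58. FICC-Seq exceeded iCLIP at 53 and 54 by 36.0 points for tRNA-Leu-AAG, 36.0 for tRNA-Leu-CAG, 29.4 for tRNA-Leu-TAA and 40 for tRNA-Leu-TAG, each with the smallest p that the exact permutation test allowed (p = 0.005, adjusted p = 0.0219). At position 58, FICC-Seq was 9.16 points higher for CAG (exact permutation p = 0.005, adjusted p = 0.0219). With position 54 placed by the FICC-Seq peak it was 5.58 points and not called (adjusted p = 0.0841). That placement takes the base after the tallest FICC-Seq position as 54. At tRNA-Leu-CAG-1-6 the tallest position was 58, with 146 counts against 119 at 53 in HEK293 and 368 against 347 in HAP1. The base so placed is not the 54 of its T loop. How much of the change came from this locus was not tested. For TAA the difference was 9.95 points (exact permutation p = 0.02, adjusted p = 0.0684; called with that placement, 10.1 points, adjusted p = 0.025), for AAG -2.13 points (exact permutation p = 0.535, adjusted p = 0.567) and for TAG -0.39 points (exact permutation p = 0.92), none of which was called. Whether the anticodons differed from each other at 58 was not tested.

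Loci differed in how their counts were split between 53 and 58. Within some loci, the trailer bases needed for a single exact match also differed between these positions. At 53 and 58 they were 0 and 2 for TAA-chr11-12 and TAA-4-1, and 4 and 2 for AAG-3-1. For tRNA-Leu-AAG-2-1 to AAG-2-4 they were 3 or 4 at both. How far this shaped the splits was not tested. Among the 17 loci with at least 100 FICC-Seq counts, the share at 58 had a median of 29.8% and ran from 19.6% to 49.7% for all but the ends of the order. At the high end, tRNA-Leu-TAA-chr11-12 (chr11:113432995-113433078, minus strand), the sole locus with the T loop TTTGAAC, had 176 of 204 FICC-Seq counts at 58 (86.3%, 95% exact interval 80.8 to 90.7%) and 39 of 44 in iCLIP (88.6%, 75.4 to 96.2%). By library these were 15 of 16, 2 of 2 and 15 of 15 in FICC-Seq HEK293 and 49 of 58, 54 of 60 and 41 of 53 in FICC-Seq HAP1. At 53 and 54 it had only 18 FICC-Seq counts, and all of them were in HAP1. In iCLIP, 26 of 26 counts lay at 58 in HEK293 and 13 of 18 in HAP1. The intervals given for this locus pool libraries of both cell lines and cover counting error only. tRNA-Leu-AAG-4-1, with the T loop TTTGAAT, had 24.1% at 58 on 29 FICC-Seq counts.

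At the low end, tRNA-Leu-TAA-4-1 (chr6:27198334-27198416, minus strand), the sole locus with the T loop TTCGAGC, had 28 of 248 FICC-Seq counts at 58 (11.3%, 95% exact interval 7.63 to 15.9% for counting error only) and 212 at 53 and 54 (85.5%). In iCLIP it had 5.52% at 58 and 28.6% at position 53, where the other 12 loci with at least 100 iCLIP counts had between 0% and 6.65%. In miCLIP it had 0 of 302 counts at 58, which allows up to 1.21% by the exact interval, again for counting error only. Its levels were 2150, 1314 and 1794 CPM in FICC-Seq HEK293, 1043, 861 and 1617 in FICC-Seq HAP1, 3557, 6886 and 8426 in iCLIP HEK293, 2723, 4566 and 5102 in iCLIP HAP1, and 2383 and 1998 in miCLIP. It was the highest of the 19 loci in miCLIP replicate 1 and stood lower in FICC-Seq than in iCLIP in both cell lines.

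tRNA-Leu-AAG-3-1, the gene with G57A, had the second highest share at 58 (49.7% of 755 FICC-Seq counts and 51.0% of 147 iCLIP counts). The 4 AAG-2 genes, which lack this substitution, had 19.6 to 31.9% in FICC-Seq and 32.6 to 36.0% in iCLIP. As 735 of the 755 and 140 of the 147 counts came from HAP1, the like comparison is within that line, where tRNA-Leu-AAG-3-1 had 49.8% in FICC-Seq against 19.5 to 30.6% and 52.1% in iCLIP against 32.1 to 43.9%, the latter on 23 to 106 counts a locus. In miCLIP it had 1 of 44 counts at 58, while 24 of the 44 (54.5%) lay 5′ of position 49.

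Set against other tRNAs of the same libraries, the 19 loci had relatively more FICC-Seq counts at 58 than tRNAs at large and fewer than serine tRNAs. In FICC-Seq, the share at 58 differed by 12.4 points from that of all other tRNA loci (29.4% against 16.9%, higher in 6 of 6 libraries), by -13.2 points from that of tRNA-Ser (lower in 6 of 6) and by 5.99 points from that of tRNA-Leu-CAA (higher in 5 of 6). At 53 and 54 the difference was -11.3 points from all other tRNA loci (lower in 6 of 6), 8.62 points from tRNA-Ser (higher in 6 of 6) and -2.30 points from tRNA-Leu-CAA (lower in 4 of 6). Where all 6 libraries pointed one way, the exact sign-flip permutation gave p = 0.031, the smallest it can give, and an adjusted p = 0.0684 over the 35 permutation tests made, so none of these differences was called. The gap to tRNA-Leu-CAA is given by cell line too, though a difference between the lines was not tested. At 58 the 19 loci had 27.9% against 16.8% in HEK293 and 30.9% against 30.0% in HAP1, and at 53 and 54 they had 60.7% against 67.7% in HEK293 and 56.6% against 54.3% in HAP1, so that the mean difference at 53 and 54 had opposite signs in the 2 lines. The exact permutation p over both lines was 0.0625 at 58 (adjusted p = 0.114) and 0.344 at 53 and 54 (adjusted p = 0.401). The difference from tRNA-Ser at 58 turned to 14.7 points when position 54 was set from the FICC-Seq peak of the other cell line. That setting takes the base after the tallest position as 54, so base 58 loses its number wherever it is the tallest. By sequence, tRNA-Ser had 42.6% of FICC-Seq counts at 58 and 50.0% at 53 and 54 together. How many tRNA-Ser loci had 58 as the tallest position was not counted.

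In iCLIP, the share at 58 differed by -24.5 points from that of tRNA-Ser (lower in 6 of 6 libraries, exact sign-flip permutation p = 0.031, adjusted p = 0.0684) and by 1.89 points from that of tRNA-Leu-CAA (higher in 6 of 6, same exact permutation p and adjusted p). Against all other tRNA loci it was -3.44 points, lower in 4 of 6 libraries (exact permutation p = 0.156, adjusted p = 0.195). At 53 and 54 the differences were 1.01 points from tRNA-Leu-CAA, 5.69 from tRNA-Ser and 2.19 from all other tRNA loci, with adjusted p of 0.567, 0.135 and 0.302 by exact permutation. In the 2 miCLIP libraries, the loci had 53.5% at 53 and 54 against 29.3% for tRNA-Leu-CAA, a gap of 22.3 and 26.1 points that was not tested. Among the 16 families of other amino acids for which the shares could be had in every library, those whose shares at 53 and 54, at 58 and 5′ of 49 were nearest over the 14 libraries were tRNA-Met, tRNA-Gly and tRNA-Ile, with mean absolute differences of 7.79, 8.17 and 8.84 points. The next, tRNA-Ser at 8.85 points, was practically level with tRNA-Ile.

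**Figure D3:**
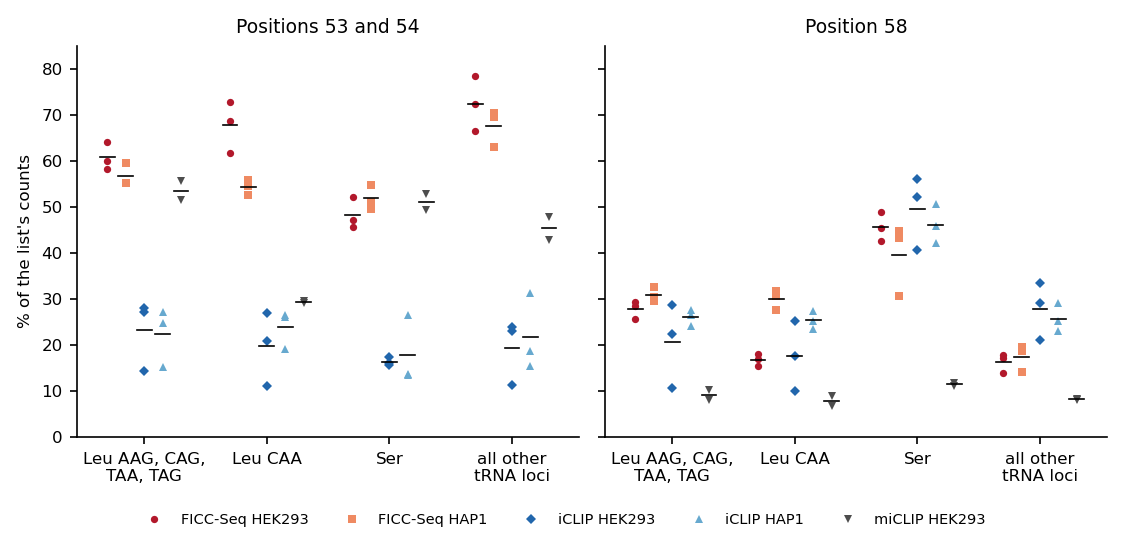
Share of counts (percent, y axis) at positions 53 and 54 (left) and at 58 (right) for the 19 leucine loci, tRNA-Leu-CAA, tRNA-Ser and all other tRNA loci; points are libraries and lines are means of each experiment. At 58 the FICC-Seq libraries of the 19 loci sit at 25.6 to 32.6%, above the 6 FICC-Seq libraries of all other tRNA loci, and each sits below its own library's tRNA-Ser value.

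The cDNA counts at each locus were compared between FICC-Seq and iCLIP in a linear model over 313 loci (limma). They were scaled by trimmed means of log ratios, so that a difference is relative to the bulk of loci. In HEK293, 4 of the 19 loci were higher in FICC-Seq and 5 lower at an adjusted p under 0.05, where 18.8% of all loci tested were higher and 29.7% lower. In HAP1, 2 were higher and 3 lower, where 16.3% of all were higher and 29.1% lower. The median log2 difference of the 19 loci was -0.06 in HEK293 and 0.05 in HAP1, beside -0.41 and -0.38 over all loci. With library totals as the scale, the median of all loci became 0.37 and 0.10, higher calls rose from 38.8% to 63.6% of all calls in HEK293 and from 35.9% to 50.0% in HAP1, and the 19 loci gave 9 higher and 2 lower in HEK293 and 4 higher and 3 lower in HAP1.

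The calls that were higher in FICC-Seq, 6 over both cell lines, fell on 3 TAA loci, of which TAA-3-1 was called in both lines, and on AAG-2-3 and TAG-2-1. tRNA-Leu-TAA-3-1 had 14080, 10825 and 16251 CPM in FICC-Seq HEK293 against 1549, 2754 and 3856 in iCLIP, a log2 difference of 1.77 (SE 0.32, adjusted p = 0.000208), and 11134, 10247 and 10165 against 3813, 4566 and 3609 in HAP1 (0.92, SE 0.28, adjusted p = 0.0121). Its groups did not overlap in either cell line, and it was called in all 19 alternatives in both. tRNA-Leu-TAA-2-1 had 35, 41 and 56 counts in FICC-Seq HEK293 and 1, 0 and 2 in iCLIP HEK293. It was called (adjusted p = 0.000621). As iCLIP held 3 counts in all, its size is given as a ratio of summed counts, each divided by its group's summed library totals. This ratio was 20.9, with a 95% exact interval of 7.01 to 103 that covers counting error only. In HAP1 the difference of 1.25 (SE 0.53) was not called (adjusted p = 0.0625). tRNA-Leu-TAA-1-1 was called higher in HAP1 by 0.88 (SE 0.26, adjusted p = 0.00986) but not when iCLIP HAP1 replicate 2 was left out (0.70, adjusted p = 0.0694). Its 0.54 (SE 0.26) in HEK293 was not called (adjusted p = 0.0992). It was called there without iCLIP HEK293 replicate 1 (0.85, adjusted p = 0.0425) and with library totals as the scale (1.26, adjusted p = 0.000129). tRNA-Leu-AAG-2-3 and TAG-2-1 were called in HEK293 with 0.94 (SE 0.36, adjusted p = 0.0366) and 0.79 (SE 0.32, adjusted p = 0.0449), and both lay close to the threshold. The AAG-2-3 call was lost without FICC-Seq HEK293 replicate 1 or 3 or any iCLIP HEK293 replicate, with log2 differences of 0.65 to 1.14 and adjusted p of 0.0522 to 0.226. The TAG-2-1 call was lost without FICC-Seq HEK293 replicate 2 or 3, iCLIP HEK293 replicate 2 or 3, iCLIP HAP1 replicate 3 or miCLIP replicate 1, with log2 differences of 0.65 to 0.80 and adjusted p of 0.0523 to 0.167.

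Lower in FICC-Seq in both cell lines were tRNA-Leu-TAG-3-1, TAA-4-1 and CAG-2-2. tRNA-Leu-TAG-3-1 (chr16:22207032-22207113, minus strand) had 7588, 6132 and 8970 CPM in FICC-Seq HEK293 against 16234, 19406 and 13568 in iCLIP (log2 difference -1.84, SE 0.27, adjusted p = 2.46e-05), and 3835, 3832 and 5365 against 17883, 17097 and 14808 in HAP1 (-2.41, SE 0.27, adjusted p = 1.40e-06). Its groups did not overlap in either line. tRNA-Leu-TAG-1-1, with the same 20 bases from 54 to 73, had log2 differences of -0.01 (SE 0.27) and -0.13 (SE 0.25), and tRNA-Leu-AAG-2-4, also with these bases, 0.02 (SE 0.29) and 0.05 (SE 0.28), none of them called. On the scale of library totals these 2 loci were higher in FICC-Seq in HEK293, TAG-1-1 by 0.76 (adjusted p = 0.00777) and AAG-2-4 by 0.80 (adjusted p = 0.0286). tRNA-Leu-TAA-4-1 was lower by -2.40 (SE 0.33, adjusted p = 1.27e-05) in HEK293 and -2.24 (SE 0.35, adjusted p = 6.09e-05) in HAP1, and like TAG-3-1 it was called in all alternatives. tRNA-Leu-CAG-2-2 was at -1.0 (SE 0.25, adjusted p = 0.00298) in HEK293 and -0.92 (SE 0.24, adjusted p = 0.00531) in HAP1. In HEK293, CAG-2-2, CAG-2-1 (-1.05, SE 0.28) and CAG-1-7 (-0.82, SE 0.26) lost the call with library totals as the scale, with log2 differences of -0.28, -0.28 and -0.07, and CAG-1-7 also without iCLIP HEK293 replicate 1 (-0.61, adjusted p = 0.126).

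**Figure D4:**
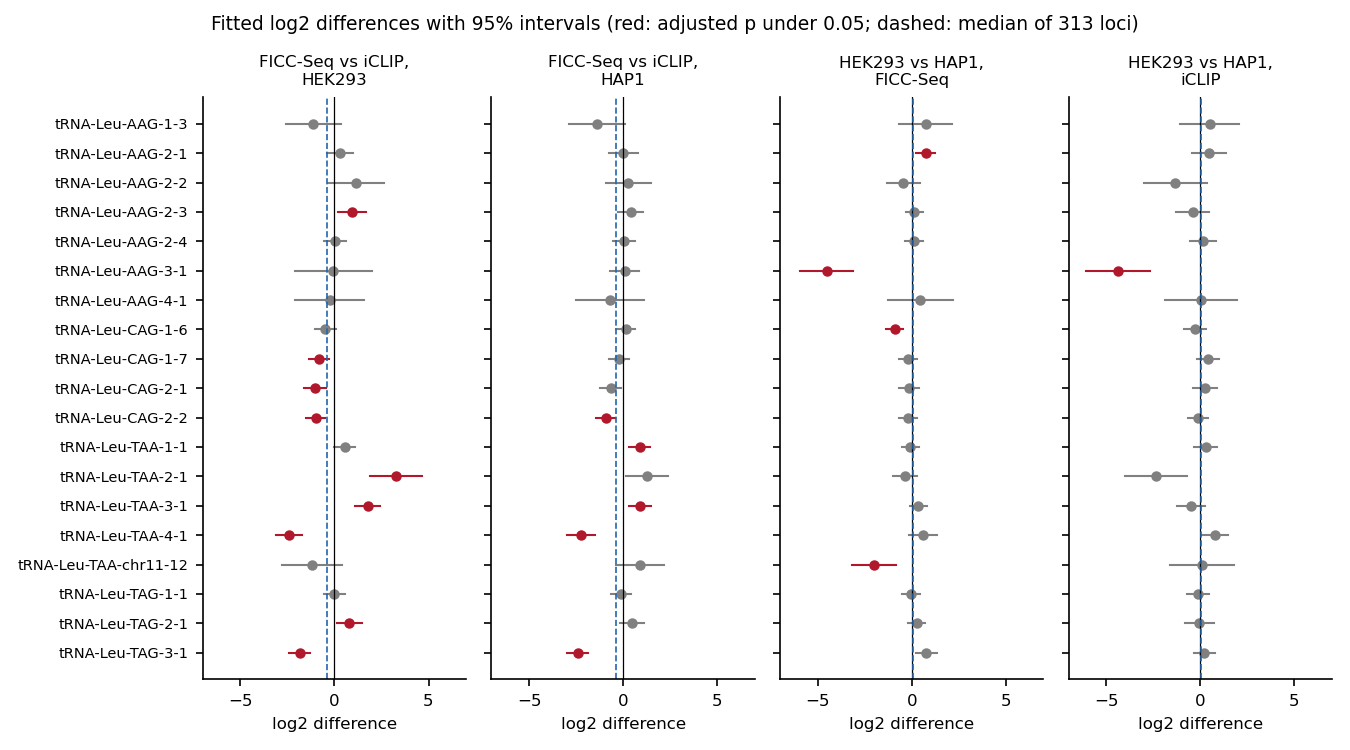
Fitted log2 differences (x axis) of the 19 loci between FICC-Seq and iCLIP in each cell line and between HEK293 and HAP1 in each method; points are estimates, lines 95% intervals, red marks an adjusted p under 0.05 and the dashed line is the median of all 313 loci. tRNA-Leu-AAG-3-1 is far below the rest in both HEK293 against HAP1 panels, at -4.53 and -4.39. The TAA-2-1 point of FICC-Seq against iCLIP in HEK293 rests on 3 iCLIP counts and is no measured size.

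Between the cell lines, most of the 19 loci were not called, and tRNA-Leu-AAG-3-1 was the exception in both methods. In FICC-Seq, 1 locus was higher in HEK293 and 3 lower, where 7.67% of all loci were higher and 5.11% lower. In iCLIP, 0 were higher and 1 lower, where 0.958% and 0.319% of all loci were (1.28% in either direction), and 3 of the 19 had an unadjusted p under 0.05. The median log2 difference of the 19 loci was -0.02 in FICC-Seq and 0.03 in iCLIP, beside 0.09 and 0.01 over all loci. With library totals as the scale, higher calls went from 75% to 50.0% of the few calls over all loci in iCLIP, and the 19 loci again gave 0 higher and 1 lower. As HEK293 and HAP1 libraries form separate sets of files, cell line and set cannot be told apart.

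tRNA-Leu-AAG-3-1 had 169, 313 and 387 CPM (4, 5 and 11 counts) in FICC-Seq HEK293 and 6257, 5304 and 9190 CPM (186, 191 and 358 counts) in FICC-Seq HAP1. In iCLIP it had 0, 626 and 286 CPM (0, 5 and 2 counts) in HEK293 and 4811, 3186 and 7093 CPM (53, 30 and 57 counts) in HAP1. The 0 counts of iCLIP HEK293 replicate 1 allow up to 172 CPM. Every HAP1 library was above every HEK293 library, the 2 miCLIP libraries from HEK293 with 461 and 249 CPM included. The log2 difference between HEK293 and HAP1 was -4.53 (SE 0.67, adjusted p = 0.000145) in FICC-Seq, called in all 19 alternatives, and -4.39 (SE 0.81, adjusted p = 0.0083) in iCLIP, where it was not called without HEK293 replicate 1, the library with 0 counts (-3.19, adjusted p = 0.126). The interaction of method and cell line was -0.14 (SE 1.05, adjusted p = 0.965). Its 4 near-identical AAG-2 relatives, which lack G57A, had FICC-Seq differences of 0.74 (AAG-2-1), -0.45 (AAG-2-2), 0.14 (AAG-2-3) and 0.10 (AAG-2-4).

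The other calls between cell lines were in FICC-Seq, and a difference between the methods was not called for them (interaction -0.62 with adjusted p = 0.577 for tRNA-Leu-CAG-1-6, -2.10 with adjusted p = 0.501 for TAA-chr11-12 and 0.26 with adjusted p = 0.905 for AAG-2-1). tRNA-Leu-CAG-1-6 had 5101, 6257 and 5065 CPM in HEK293 and 10159, 9109 and 11012 in HAP1 (log2 difference -0.91, SE 0.22, adjusted p = 0.00896), while in iCLIP the values of 3385, 5509 and 5570 against 6354, 6796 and 6844 gave -0.29 (SE 0.29, adjusted p = 0.887). Its identical copy tRNA-Leu-CAG-1-7, on chromosome 6, had 9527, 7884 and 9603 against 10327, 10053 and 10653 CPM in FICC-Seq (-0.22, SE 0.23, adjusted p = 0.657). Whether the pair differed was not tested. tRNA-Leu-TAA-chr11-12 had 675, 125 and 528 CPM in HEK293 and 1951, 1666 and 1360 in HAP1 (-2.01, SE 0.56, adjusted p = 0.0216), and lost the call without FICC-Seq HEK293 replicate 2 (-1.45, adjusted p = 0.0625) and without replicate 3 (-2.35, adjusted p = 0.0537). In iCLIP it had 1205, 501 and 143 against 817, 425 and 622 CPM (0.09, SE 0.81). tRNA-Leu-AAG-2-1 had 3246, 3254 and 3658 CPM in HEK293 and 2153, 1833 and 2054 in HAP1 (0.74, SE 0.24, adjusted p = 0.0492), and this call was lost in 16 of 19 alternatives, the fit with the replicate block included (0.74, adjusted p = 0.0522). The interaction test called 0 of 313 loci by limma, with 2 of the 19 at an unadjusted p under 0.05.

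Against miCLIP, in which an anti-FLAG antibody precipitated the transfected TRMT2A mutant, most of the leucine loci were higher in FICC-Seq and iCLIP. In FICC-Seq HEK293, 14 of the 19 loci were higher than in miCLIP and 0 lower, where 37.7% of all loci were higher and 37.1% lower (74.8% in either direction), with a median log2 difference of 1.76 beside 0.03 over all loci. In iCLIP HEK293, 14 were higher and 1 lower, where 29.7% of all were higher and 18.2% lower, with medians of 2.29 and 0.04. These comparisons share the miCLIP libraries, and each shares its other arm with the comparison of FICC-Seq and iCLIP. All loci tested were listed by a rule that required counts in FICC-Seq or iCLIP but none in miCLIP. The calls against miCLIP are thus not independent of that choice. With library totals as the scale, FICC-Seq against miCLIP gave 13 higher and 0 lower, and iCLIP against miCLIP 10 higher and 1 lower, while the median of all loci in the latter moved to -0.86 and higher calls from 62% to 33.9% of all calls.

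tRNA-Leu-CAG-2-2, the most counted of the loci, exceeded miCLIP by 4.07 (SE 0.31, adjusted p = 2.06e-09) in FICC-Seq and 5.07 (SE 0.32, adjusted p = 8.56e-11) in iCLIP on the log2 scale. The loci not called between FICC-Seq and miCLIP were tRNA-Leu-AAG-1-3, AAG-2-2, AAG-3-1, AAG-4-1 and TAA-4-1, with log2 differences between -0.62 and 1.34. tRNA-Leu-TAA-2-1 was the locus called lower in iCLIP than in miCLIP (adjusted p = 0.00618), on 1, 0 and 2 iCLIP counts against 44 and 115 in miCLIP. Summed counts over summed library totals were higher in miCLIP by a ratio with a 95% exact counting interval of 4.02 to 58.6. The call was lost without iCLIP HEK293 replicate 2 (adjusted p = 0.0823). Its 0.90 (SE 0.36, adjusted p = 0.0282) in FICC-Seq over miCLIP was lost in 14 of 19 alternatives. Of the higher calls in iCLIP over miCLIP, that of tRNA-Leu-TAG-2-1 held in 8 of 19 alternatives. On library totals it was 0.16 (adjusted p = 0.707 by limma). The calls of AAG-1-3, on 11 iCLIP HEK293 counts, and of AAG-2-4 held in 17 each, and that of CAG-1-6 in 18. tRNA-Leu-TAA-chr11-12 had 1 count in each miCLIP library. Its summed counts over summed library totals in FICC-Seq HEK293 were 34.8 times those in miCLIP (95% exact counting interval 8.90 to 299). In miCLIP, tRNA-Leu-TAA-4-1 with 93 and 209 counts was the third most counted of the 19 loci after CAG-1-6 and AAG-2-4. The antibody, the expressed protein, the method and the set of files all differ between miCLIP and the other experiments and cannot be told apart.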

How the data were processed

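The authors' files hold cDNA counts at single positions of hg19, whole numbers with the strand as sign and no scaling. Per the methods, duplicates were removed by random barcode and reads mapped with bowtie on the iCount server, and only uniquely mapped reads were deposited. A read counted at a position starts at the next base. The members and lists were chosen with earlier results of these data known. Position 54 was placed by folding the T arm in the sequence (4 or more T-stem pairs, 6 or more acceptor pairs). Annotation was GENCODE on the same build.

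Summed counts were fitted with limma 3.58.1 (voom, trimmed-mean scaling, R 4.3.3) in place of the count model planned, which the summed counts would also allow and which was not run. Loci entered with at least the level of 5 counts in a library of median size in 2 libraries, and 15 counts in all. Shares were tested by exact two-sided permutation of libraries, adjusted by Benjamini-Hochberg over 35 tests. Python 3.11.15 and scipy 1.17.1 were used. Per-library values were given for the locus with most FICC-Seq counts of each anticodon, for loci called between cell lines in both methods, for the highest and lowest share at 58 among loci with at least 100 FICC-Seq counts, and for other loci on which a call turned, which were chosen after their values were seen. All replicate pairs differed by more than sampling noise (chi-square over loci, 1.59 to 7.90 per degree of freedom), FICC-Seq HEK293 replicates 1 and 3, which share a barcode label, included (2.15). Deviations of equal replicate numbers correlated between HEK293 and HAP1 (0.41, 0.64 and 0.28 in FICC-Seq, 0.25, 0.26 and 0.14 in iCLIP), each over 0.1, although FICC-Seq replicate 3 correlated more with another number (0.43). The printed tests between cell lines are unpaired, and the blocked value stands beside the call it changed. Alternatives covered scaling, the low-count filter, the window, barcode collisions, placement of position 54, weighting, the replicate block and each library left out.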

Additional observations from a re-analysis of the deposited data

How the results depend on the processing

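Of 133 differences at single loci, 48 were called, and 32 of these stayed called in all their alternatives. No called difference changed sign. Of 1615 values of differences not called, 121 changed sign without passing the threshold, and 1 more changed sign and passed it. In that value, tRNA-Leu-TAG-1-1 was 0.76 higher in FICC-Seq than in iCLIP in HEK293 with library totals as the scale (adjusted p = 0.00777). Placing position 54 by the FICC-Seq peak of the other cell line gave -6.75 points 5′ of 49 (FICC-Seq against iCLIP, adjusted p = 0.105) and -0.184 (HEK293 against HAP1), 5.58 for CAG (adjusted p = 0.0841) and 10.1 for TAA (adjusted p = 0.025) at 58, -13.8 (53 and 54, iCLIP) and 14.7 (58, FICC-Seq) against tRNA-Ser, and -0.566 (53 and 54) and 1.84 (58) in iCLIP against other tRNA loci. Equal weight for each locus gave 0.0102 for TAG at 58, and a window of 25 nt gave -0.145 for the counts 5′ of 49 in HEK293 against HAP1. The share of the library in FICC-Seq against iCLIP was 1.99 without the most counted locus and -2.77 without single-count positions. Placement by the peak takes the base after the tallest FICC-Seq position as 54. Where 58 was the tallest, that base is not the 54 of the sequence. Among the 19 loci this held for CAG-1-6, TAG-1-1, AAG-3-1 and TAA-chr11-12 in both cell lines and for TAA-2-1 in HEK293. How much of each change came from this numbering was not tested, nor was the cause of the other changes.

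Leaving out each library gave 2 to 4 calls between cell lines in FICC-Seq (2 without FICC-Seq HEK293 replicate 3) and 0 to 1 in iCLIP (0 without iCLIP HEK293 replicate 1). The library share ran from -1.69 to -1.06 in HEK293 against HAP1, and the share 5′ of 49 from -2.19 to 4.22. At 58, FICC-Seq against iCLIP ran from 3.51 to 8.04, HEK293 against HAP1 from -6.35 to -1.81, TAA from 6.90 to 12.3 and TAG from -3.23 to 2.27. The difference from tRNA-Leu-CAA at 53 and 54 in iCLIP ran from -0.0416 to 1.98.

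Equal replicate numbers of FICC-Seq and iCLIP correlated at 0.20, 0.20 and -0.11 in HEK293 and at 0.08, 0.25 and 0.09 in HAP1. These values do not settle whether such libraries share more than a number. With the replicate block, 8 differences between these methods had the same size (-5.24, 35.8, -12.7, AAG 36.0, CAG 36.0 and 9.16, TAA 29.4, TAG 39.99) with adjusted p = 0.0684, as that exact permutation test cannot go below p = 0.031. Calls between FICC-Seq and iCLIP were 9 in HEK293 and 6 in HAP1 with the block, and between cell lines it removed the AAG-2-1 call. A test in DESeq2 was not run. Counts under 3 in a library set the limit for the lowest loci.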
